A study of Drosophila melanogaster with 4 samples.

Results

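Adult male Drosophila melanogaster homozygous for the V966M allele of Ago2 were compared with males homozygous for the 51B allele by mRNA sequencing, gene by gene. Of 13990 genes in the deposited table, 13374 were quantified with status OK in both homozygotes, and the 10953 of these with a mean of at least 1 FPKM over the pair were analysed. FPKM is the fragment number scaled by transcript length and by mapped fragments. The last gene inside that minimum was alpha4GT2, at 1.16 FPKM in V966M and 0.836 FPKM in 51B, and the first outside was Edg78E, at 0.628 and 1.37 FPKM.

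The homozygotes were V966M/V966M and 51B/51B, so neither carried a balancer. The heterozygotes, used here only to set values beside them, were V966M over TM3 marked with twi-GFP, Sb and Ser, and 51B over TM3 marked with Ser and y+. All flies were males of 0 to 16 hr of adult age, raised at 25 °C, and RNA came from whole males as far as the labels state. The table holds 1 value per genotype, so n = 1 on each side: there was no replicate check, no test and no p-value, and a difference between the alleles cannot be told apart from a difference in genetic background or between 2 collections of flies.

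Ago2 encodes the Argonaute protein that is loaded with small interfering RNAs (siRNAs) cut by Dicer-2 and then cleaves RNAs that match them. In flies this pathway is known for its defence against viruses, for silencing transposons in the body and for acting on RNAs that match siRNAs from long endogenous hairpins. The name V966M denotes a valine-to-methionine change in the protein, and 51B is known as an allele that makes little or no AGO2. The comparison therefore sets a protein that is still encoded but altered against a nearly missing transcript.

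A gene's change is log2((FPKM + 1)/(FPKM + 1)), V966M over 51B, minus the median of all analysed genes, which was -0.12 as deposited. This scale understates changes where levels are low. A gene is called higher or lower in V966M where the centred change was at least 2-fold and the deposited intervals, with the V966M bounds rescaled by the same factor, did not overlap. The fold decided nearly all calls, as the intervals removed only 7 genes past 2-fold. Depth is unknown in FPKM values, and the interval width stands in for precision. At 5 FPKM or more, the interval reached a median of 16.5% to either side of the value in the V966M homozygote and 29.2% in the 51B homozygote. The 51B homozygote held extreme values most often. Of 10801 genes quantified in all 4 genotypes it was the lowest of the 4 in 35.0% and the highest in 31.1%. These shares were 18.8% and 18% for the V966M homozygote, 22.9% and 26.6% for the V966M heterozygote and 23.4% and 24.2% for the 51B heterozygote. The 51B homozygote also had the widest intervals, and their part in these shares was not tested.

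AGO2 was 15.1-fold higher in the V966M homozygote, a centred log2 change of 3.91. V966M homozygotes had 101 FPKM (deposited interval 83.4 to 118) and 51B homozygotes 6.33 FPKM (4.50 to 8.16). The heterozygotes had 150.0 and 46.5 FPKM, with a smaller change of 1.41 in the same direction. Both V966M values thus lay above both 51B values, each heterozygote lay above its homozygote, and the homozygotes' intervals were far apart. The locus lies on 3L from 15547217 to 15556163 in dm3 and overlaps CG7739. Of 19 analysed genes within 50 kb, CG7272 was the other call, at 38.8 against 18.8 FPKM (change 1.12), and the remaining 17 lay between -0.57 and 0.67. CG7272 was also the higher in V966M between heterozygotes, at 47.6 against 29.8 FPKM.

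Other genes of the siRNA pathway differed little between the homozygotes. Dcr-2, which cuts long double-stranded RNA into siRNAs, had 7.22 FPKM in V966M and 5.89 FPKM in 51B (change 0.37). Its partner r2d2, which helps load siRNAs into AGO2, had 6.79 and 5.23 FPKM (0.44). The gene loqs, whose products assist both Dicers, went the other way at 32.7 and 48.7 FPKM (-0.45). Trax and trsn, which encode the subunits of the C3PO nuclease that clears the passenger strand, had changes of 0.10 and -0.02. AGO2 was thus the single call among 6 analysed genes, and Hen1, the siRNA methyltransferase gene, was left out for its status.

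Genes of the sister pathways were not called, which in such short lists does not set them apart, as 5.16% of all analysed genes were called. Among 6 miRNA genes the changes ran from -0.57 for Ranbp21, the Exportin-5 gene, to 0.44 for gw, which encodes the GW182 partner of AGO1. Dcr-1, the miRNA Dicer gene, had 3.46 against 4.92 FPKM. Among 8 analysed piRNA genes, which act in the germ line, aub had 1.91 against 1.71 FPKM and armi 2.98 against 3.98 FPKM, with a list median of -0.00. The other 6 piRNA genes in the table, piwi and AGO3 among them, lay below the minimum level.

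Of 8 hairpin RNAs and known siRNA targets, mus308 alone was called. This gene of DNA polymerase theta is known to be targeted by siRNAs that the CG4068 hairpin gives rise to. The homozygotes had 2.74 (V966M) and 9.75 FPKM (51B), and in uncentred FPKM the heterozygotes lay between them at 3.35 and 5.13 FPKM. On a log2 scale centred per genotype, the V966M heterozygote (1.97) was level with its homozygote (1.99) and not above it. The 51B heterozygote was at 2.71 and the 51B homozygote at 3.40 on that scale. The level was thus highest where AGO2 was lowest and, within V966M, differed little between homozygote and heterozygote. The centred change between homozygotes was -1.40, the gene shares its locus with CG12279, and the call was lost with a pseudocount of 5 FPKM. The hairpin transcript CG4068 had the same order of genotypes in uncentred FPKM, with the homozygotes at 78.3 and 166 FPKM and the heterozygotes at 94.7 and 123 FPKM. Its change of -0.96 reached the threshold only without centring. Of the other hairpin RNAs, CR18854 had 145 against 116 FPKM (0.44) and CR32207 had 6.91 against 10.4 FPKM (-0.40). CR32205 (0.10) and pncr009:3L (-0.33) also stayed below the threshold. So did CG8289 (0.26), a list member whose current symbol, unlike theirs, does not name a hairpin RNA. ATPsyn-beta, an ATP synthase gene on chromosome 4 and a known siRNA target, was at 2623 against 1601 FPKM (0.83).

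**Figure D1:**
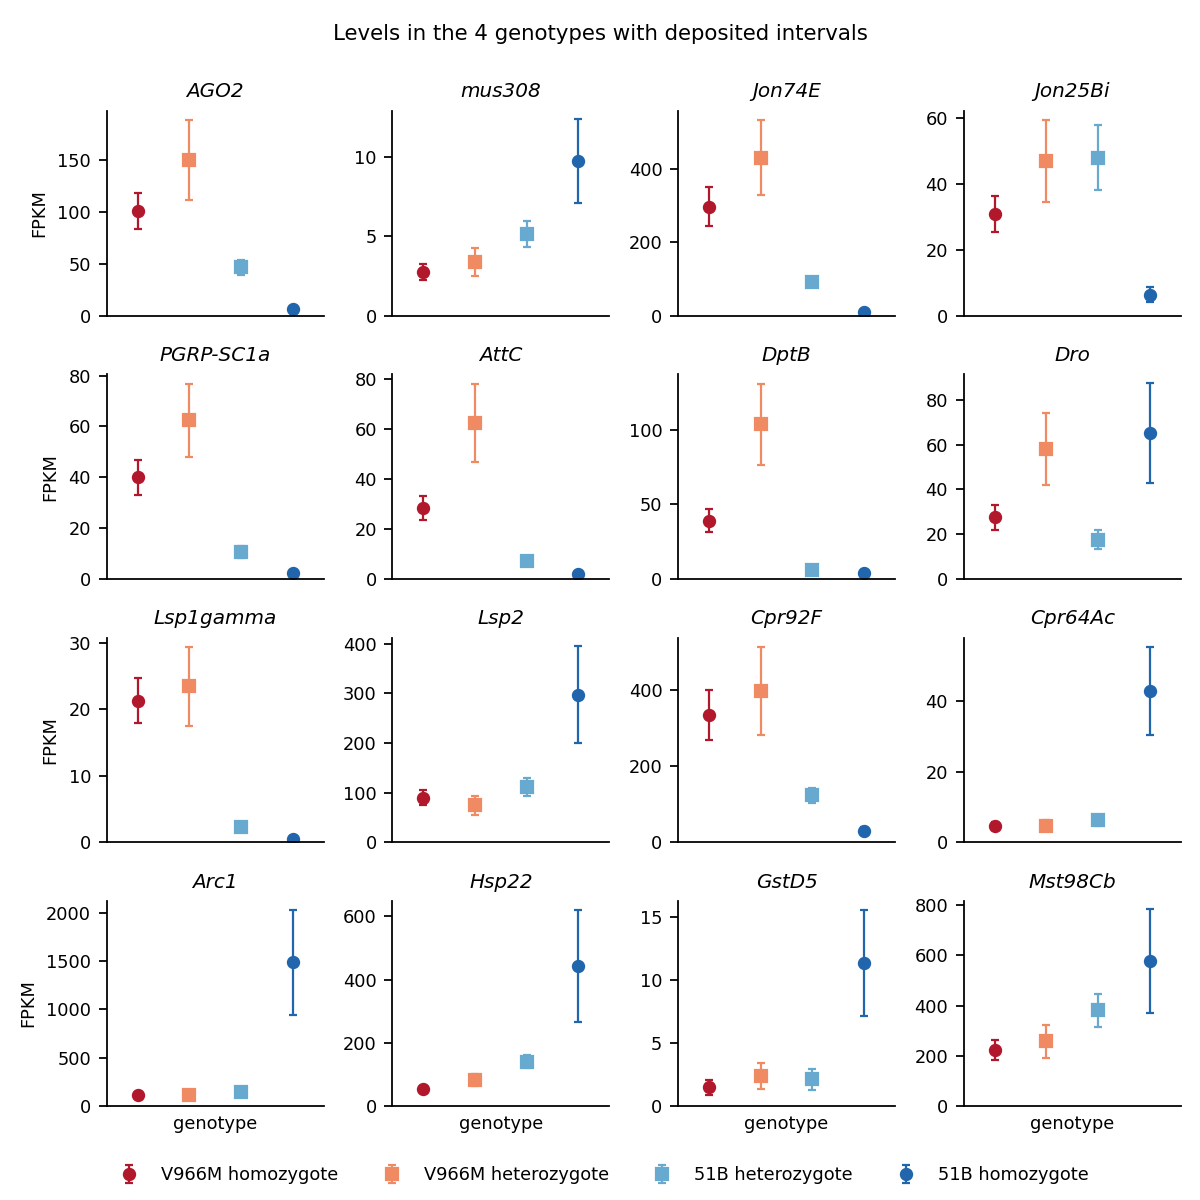
Levels of 16 genes in FPKM (vertical axes, each from 0) in the 4 genotypes, where circles are homozygotes, squares are heterozygotes and bars are the deposited intervals. AGO2 fell to 6.33 FPKM in the 51B homozygote, where mus308 reached 9.75 FPKM and Arc1 1486 FPKM, while Dro had its 2 higher values in the V966M heterozygote and the 51B homozygote.

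In all, 368 genes (3.36% of those analysed) were higher and 197 (1.8%) were lower in the V966M homozygote, together 5.16%. The call counts of each gene list are to be read beside these shares. Of these calls 65.1% were to the higher side, and that split moved with the scale. Without centring, 297 genes were higher and 306 lower (49.3% higher). When values were centred on cytosolic ribosomal protein genes, 537 were higher and 131 lower (80.4% higher). The first choice subtracts 0.12 from every change and the second adds 0.17, so medians between -0.17 and 0.12 in what follows change sign with the scale. Most genes were close in the 2 homozygotes: 81.7% lay within 1.5-fold of the median ratio, while 66 genes were higher and 29 lower by at least 4-fold. By level, 4.41% of 3013 genes between 1 and 5 FPKM were called, and 10.4% of 823 genes at 100 FPKM or more. The balance differed too, with 105 higher and 28 lower in the lowest class and 38 higher and 48 lower in the highest.

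**Figure D2:**
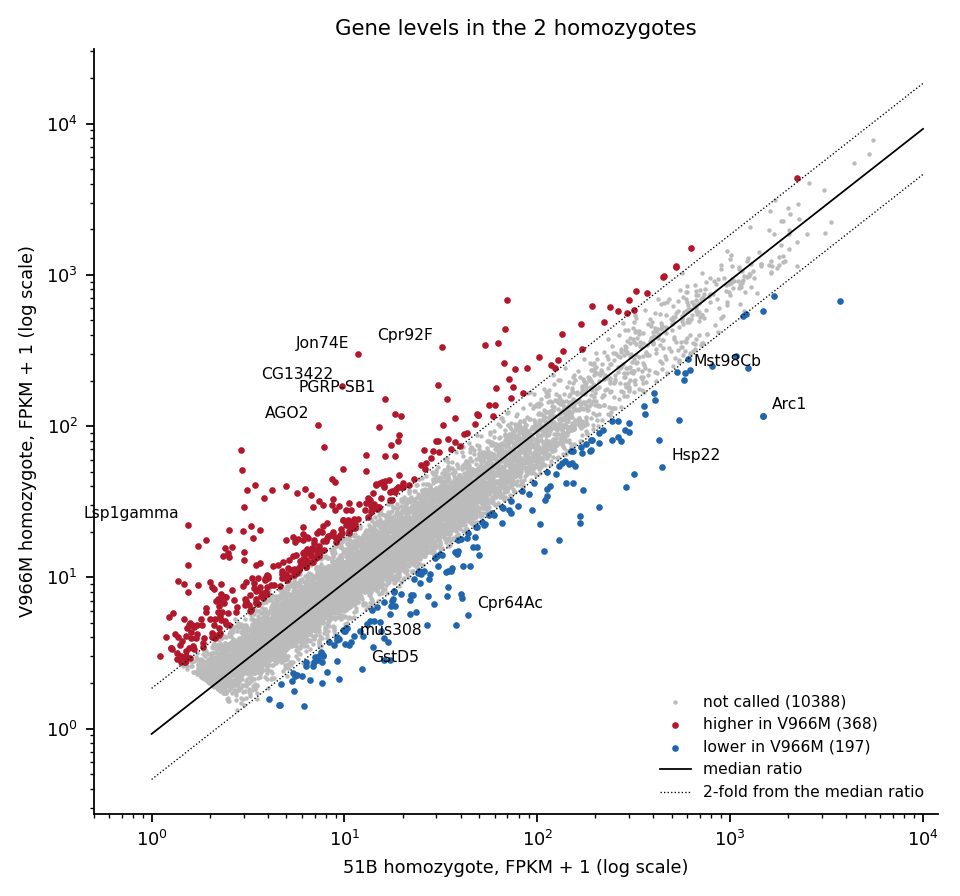
FPKM + 1 of 10953 genes in the 51B homozygote (horizontal, log scale) and the V966M homozygote (vertical, log scale), with the median ratio as a solid line and 2-fold from it as dotted lines. The 368 genes higher in V966M reach down to low 51B levels, with Jon74E and AGO2 far from the line, and Arc1 lies far out among the 197 lower genes.

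The genes highest in V966M relative to 51B encode proteases, immune recognition proteins, a larval storage protein and a cuticle protein. Jon74E, a gut serine protease gene on 3L from 17539968 to 17542227, had 297 FPKM (244 to 351) against 10.8 FPKM (7.29 to 14.3), 27.4-fold. CG13422, now named GNBP-like3 after its likeness to glucan-binding immune proteins, had 183 FPKM (153 to 213) against 8.76 FPKM (5.29 to 12.2). Both were also higher in V966M between heterozygotes, by 1.95 and 1.16 on the centred log2 scale against 4.78 and 4.36 between homozygotes.

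Lsp1gamma, which encodes a subunit of a larval blood storage protein, had 21.3 against 0.543 FPKM (3.97). PGRP-SC1a and PGRP-SC1b, near-identical genes for gut amidases that cut bacterial peptidoglycan, had 40.0 against 2.44 FPKM and 36.8 against 2.14 FPKM. The cuticle protein gene Cpr92F was at 334 against 31.0 FPKM (3.51). The remaining large changes were those of CG18449 (68.6 against 1.90 FPKM, in a locus shared by 10 genes), CG31816 (49.9 against 1.96 FPKM) and CG12374 (676 against 68.8 FPKM). AttC and PGRP-SB1 complete the first 12 and are described with the immune genes. In each of these 12 genes the 51B homozygote was the lowest of the 4 genotypes.

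The genes lowest in V966M relative to 51B included Arc1, which encodes a neuronal capsid-forming protein derived from a retrotransposon Gag. Arc1, on 2R from 10245430 to 10247799, had 116 FPKM (95.1 to 137) in the V966M homozygote and 1486 FPKM (947 to 2025) in the 51B homozygote, a change of -3.55. Both heterozygotes lay near the V966M homozygote, at 112 and 147 FPKM. Its relative Arc2 had 6.73 against 39.4 FPKM (-2.27). CG10102, listed at the locus of Arc2, had 115 against 1475 FPKM, close to the levels of Arc1, and its identity is uncertain.

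Hsp22, the gene of a mitochondrial small heat shock protein, was at 52.6 FPKM (43.7 to 61.5) against 443 FPKM (266 to 620), a change of -2.93. The cuticle protein gene Cpr64Ac had 4.65 against 42.8 FPKM (-2.84). Also among the first 12 were CG42365, CG6908, CG13311, CG14245, CG8620, CG16762, CG15784 and CG13905, with changes from -2.86 to -2.59. Of these, CG15784 had the highest level in 51B, at 316 FPKM against 47.3 FPKM in V966M, followed by CG14245 at 287 against 38.6 FPKM, and CG8620 had 108 against 14.0 FPKM. In all 12 genes the 51B homozygote was the highest of the 4 genotypes, and in all but Hsp22 the other 3 lay within 2-fold of each other.

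Antimicrobial peptide genes, whose products are released by the fat body and gut against bacteria and fungi, were mostly higher in V966M. Of 23 analysed members, 16 were higher (69.6%), 2 were lower (8.70%) and 5 were not called, with a median change of 1.81. Over all analysed genes these shares were 3.36% higher and 1.8% lower. The attacin gene AttC had 28.3 FPKM against 2.03 FPKM (3.39), and AttB, in a locus of 3 genes, had 36.7 against 3.20 FPKM. The diptericin gene DptB had 39.1 against 3.96 FPKM (3.13), and dro2, a drosomycin-like gene, had 15.2 against 0.749 FPKM (3.33). The metchnikowin gene Mtk (14.6 against 1.41 FPKM) and the immune-induced peptide genes IM1 (186 against 29.4 FPKM) and IM4 (438 against 67 FPKM) were higher as well. Between heterozygotes 14 genes of the list were called higher in V966M and 1 lower, with a median of 1.20.

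The 2 members that were lower did not share that pattern. The drosocin gene Dro had 27.5 against 65.2 FPKM (-1.10), a call lost when values were centred on ribosomal protein genes. The drosomycin-like gene dro4 had 80.4 against 428 FPKM (-2.28), with the heterozygotes at 113 and 206 FPKM. Dro, unlike dro4, ran the opposite way between heterozygotes, at 58.1 in V966M and 17.5 in 51B.

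Genes for peptidoglycan receptors and amidases were partly higher (45.5%). Of genes of the signalling pathways between them and the peptides 6.25% were higher, against 3.36% of all analysed genes. Of 11 peptidoglycan recognition genes 5 were higher and 0 lower (median 0.56). Among them PGRP-SB1, an amidase gene, had 150 against 15.2 FPKM (3.34), and PGRP-SC2 had 62.6 against 15.2 FPKM (2.09). Of 16 Toll and Imd pathway genes, SPE, whose protease activates the Toll ligand, was the single call, at 240 against 87.9 FPKM (1.55). The transcription factor gene Dif had 40.5 against 26.2 FPKM (0.72), imd 11.1 against 15.3 FPKM (-0.31) and key, the IKK-gamma gene, 25.4 against 30.7 FPKM (-0.14). The list's median was 0.03.

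Antiviral and cytokine-response genes showed no shared direction. Vago, a secreted antiviral gene known to be induced through Dicer-2, had 10.5 against 4.12 FPKM (1.28) and was the single call among 5 JAK-STAT and antiviral genes. The virus-induced gene vir-1 was level at 299 against 306 FPKM. Socs36E, a feedback inhibitor, had a change of -0.74, and dome, the receptor gene, -0.82, both short of the threshold. Of 4 Turandot genes, which encode stress-induced blood proteins, TotA was lower at 36.3 against 81.9 FPKM (-1.04), a call lost under ribosomal centring. TotM (-0.88), TotC (-0.19) and TotX (0.05) were not called, whereas all 4 were lower in V966M between heterozygotes (median -2.05). Of 3 blood cell markers, the peroxidasin gene Pxn was higher at 16.2 against 8.08 FPKM and not without centring, and Hml (2.06 against 2.21 FPKM) and eater (1.85 against 0.724 FPKM) were not called.

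Among genes for digestive enzymes of the gut, most Jonah proteases and both amylases were higher in V966M. Of the trypsins 36.4% were called higher, against 3.36% of all analysed genes. In whole flies, fewer cells of a type and less RNA per cell cannot be told apart, here or for any tissue named below. All 15 analysed Jonah serine protease genes had changes above 0, with a median of 1.76. Of them 12 were called higher (80%, against 3.36% of all). Jon99Cii had 352 against 61.8 FPKM (2.61) and its near-identical neighbour Jon99Ciii 343 against 52.7 FPKM (2.80). Jon44E had 32.4 against 2.82 FPKM (3.24). Jon25Bi stood apart in the heterozygotes, which were level at 46.9 and 47.9 FPKM, while the homozygotes were at 30.8 and 6.37 FPKM. Between heterozygotes 5 Jonah genes were called higher, with a median of 0.87.

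Of 11 trypsin genes 4 were higher, 0 lower and 7 without a call (median 0.94). epsilonTry had 261 against 66.5 FPKM and betaTry 613 against 236 FPKM. zetaTry, which has a locus of its own, had 17.3 against 5.37 FPKM. alphaTry, at 558 against 292 FPKM, was not called without centring, and alphaTry, betaTry and epsilonTry lie in a single locus of 6 genes. The 2 analysed amylase genes were both higher: Amy-d had 178 against 60.0 FPKM and Amy-p 239 against 76.1 FPKM. Jonah transcripts summed to 3223 FPKM in the V966M homozygote, 1150 in the 51B homozygote, 4100 in the V966M heterozygote and 1716 in the 51B heterozygote, so the 51B homozygote was lowest.

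Lysozyme genes, which are expressed in the gut as well, were not higher as a group. LysP, the salivary gland member, was higher at 98.2 against 14.1 FPKM (2.84). The other 6 had changes below 0, and LysD was lower at 276 against 602 FPKM (-1.01), a value at the threshold and lost under ribosomal centring. LysB had 288 against 459 FPKM and LysC 267 against 432 FPKM. Between heterozygotes 6 of the 7 were called higher in V966M, for example LysB at 527 against 149.6 FPKM. LysC, LysD and LysP lie in a shared locus of 6 genes, and such near-identical copies can exchange fragments.

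Of 18 heat shock genes 3 were called lower in V966M (16.7%, against 1.8% of all analysed genes) and 15 were not called. Changes were below 0 in 17 of them, with a median of -0.63. Beside Hsp22, the calls were Hsp70Aa at 3.44 against 9.05 FPKM and Hsp70Ab at 3.40 against 9.0 FPKM, near-identical copies whose calls were lost under ribosomal centring. The exception was Hsp67Bc, at 3.68 against 1.61 FPKM (0.96). Transcripts of the list summed to 1356 FPKM in the V966M homozygote and 2521 FPKM in the 51B homozygote, with 1615 and 1784 FPKM in the V966M and 51B heterozygotes.

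Detoxification genes went both ways. Of 67 cytochrome P450 genes 6 were higher (8.96%) and 4 lower (5.97%), against 3.36% and 1.8% of all analysed genes (median 0.26). Cyp4e1 (5.98 against 1.15 FPKM) and Cyp4d8 (18.8 against 6.69 FPKM) were higher, and Cyp4e3 (84.2 against 261 FPKM) and Cyp309a1 (10.9 against 43.7 FPKM) were lower. Of 16 glutathione transferase genes GstD5 (1.48 against 11.3 FPKM, -2.20) and GstD2 (5.65 against 28.1 FPKM, -2.01) were lower. GstE1 (36.0 against 16.7 FPKM) was higher, and GstE7 (-0.92) was called lower only without centring. All 11 UDP-glycosyltransferase genes had changes above 0, with a median of 0.87, and 3 were higher (27.3%, against 3.36% of all). These were Ugt36Bc (42.6 against 15.3 FPKM), Ugt35b (31.3 against 12.6 FPKM) and Ugt37b1 (2.68 against 0.852 FPKM, not without centring), and Ugt36Ba had a change of 0.89.

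Storage, fasting and purine genes were divided. The larval storage gene Lsp2 was lower at 90.5 against 298 FPKM (-1.59), opposite to Lsp1gamma, and Lsp1beta had 60.2 against 126 FPKM (-0.93), a call only without centring. Rfabg, now named apolpp, which encodes the main lipid carrier of the blood, was higher at 41.0 against 19.1 FPKM. Of 13 genes that respond to fasting and insulin, 1 was higher (7.69%) and 3 were lower (23.1%), against 3.36% and 1.8% of all. Thor, the translational repressor gene 4E-BP, was lower at 120.0 against 362 FPKM (-1.47). The activin-like ligand gene daw (9.54 against 23.9 FPKM) and the glucosidase gene tobi (80.0 against 188 FPKM) were lower, and neither was called under ribosomal centring. The lipase gene Lip4 was higher at 22.9 against 8.78 FPKM. In the list of 5 Malpighian tubule and purine genes the enzymes of neighbouring steps differed: ry, xanthine dehydrogenase, was higher (21.0 against 9.14 FPKM), and Uro, urate oxidase, was lower (56.4 against 149.5 FPKM). CG30016 (0.65) and the potassium channel gene Irk2 (0.61) were not called.

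Cuticle and pigment genes changed member by member. Of 51 cuticle protein genes analysed 6 were higher (11.8%) and 2 lower (3.92%), against 3.36% and 1.8% of all (median 0.34). The other 44 in the table were below the minimum or not quantified. The larval cuticle gene Lcp1 had 16.7 against 0.918 FPKM (3.32) and Lcp2 had 2.41 against 0.255 FPKM (1.56). Of 18 tanning genes, ple, tyrosine hydroxylase, was lower at 108 against 262 FPKM and not under ribosomal centring. The gene e, whose enzyme joins dopamine to beta-alanine, was lower at 53.5 against 156 FPKM (-1.41). Its partner b, which makes beta-alanine, had a change of -0.71. The pigment gene y was higher at 8.30 against 1.01 FPKM (2.33), in a locus that the table gives to 13 genes. The balancer of the 51B heterozygote carries y+ as a marker, and whether the 2 stocks differ at y itself was not examined. Of 14 eye pigment genes ry was the single call. The white gene w, a pigment transporter, had 1.34 against 3.19 FPKM (-0.73), v, tryptophan oxygenase, 5.84 against 2.92 FPKM (0.92), and se, of red pigment synthesis, 30.5 against 24.5 FPKM (0.43).

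Among genes of the male reproductive tissues, 16% of the accessory gland list were called higher, against 3.36% of all analysed genes. Of the testis list 8.70% were called lower, against 1.8% of all. Of 25 seminal fluid genes of the accessory gland and ejaculatory system 4 were called higher in V966M, 21 were not called and 23 had changes above 0, with a median of 0.57 between homozygotes and 0.17 between heterozygotes. Dup99B, a sex-peptide relative, had 470 against 167 FPKM (1.61) and Est-6, a seminal esterase gene, 117 against 48.5 FPKM (1.37). PebII, an ejaculatory bulb gene (241 against 123 FPKM), and Acp24A4 (38.7 against 19.2 FPKM) were not called without centring. Of 23 testis genes 2 were called lower and 21 were not called, and all 23 had changes below 0 (median -0.61). Mst98Cb, a sperm tail gene, had 223 against 579 FPKM (-1.25). The sperm mitochondrial gene loopin-1 had 535 against 1163 FPKM (-1.0), on the threshold and lost under ribosomal centring. The testis tubulin gene betaTub85D (303 against 620.0 FPKM, -0.91) and the protamine gene Mst35Bb (33.7 against 72.3 FPKM, -0.96) were called only without centring. Testis transcripts summed to 3122 and 5835 FPKM in the homozygotes and 3936 and 5168 FPKM in the heterozygotes, V966M first in each pair. The heterozygote median was -0.63, as low as between homozygotes, with no call.

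Genes for female tissue were low and male-specific RNAs were present, as the labelled sex has it. Of 19 ovary, chorion and yolk genes 4 passed the minimum, and these had at most 10.9 FPKM in either homozygote: Cp15 (10.1 against 10.9 FPKM), Cp18 (2.50 against 3.21 FPKM), Cp19 (0.783 against 2.05 FPKM) and Yp3 (6.34 against 8.89 FPKM). The male-specific RNA roX1, which guides X chromosome dosage compensation, had 60.5 against 51.8 FPKM and roX2 8.87 against 8.86 FPKM. None of 7 dosage compensation genes was called, among them mle (0.32), mof (-0.15) and msl-1 (0.19).

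Calls in muscle, nerve and eye rested on few genes. Of muscle genes 6.25% and of photoreceptor genes 10.5% were called higher, against 3.36% of all analysed genes. Of neuronal genes 22.2% were called lower, against 1.8% of all. Of 16 muscle genes 15 had changes above 0 (median 0.47), and the troponin C gene TpnC41C was higher at 489 against 222 FPKM (1.25). TpnC4 and TpnC47D (both 0.73) and the myofilin gene Mf (0.62) were not called. Of 19 photoreceptor genes (median -0.08) the opsin gene Rh5 was higher at 9.49 against 3.75 FPKM (1.26), whereas Rh6, another opsin gene of the inner photoreceptors, had 66.4 against 108 FPKM (-0.58). The carotenoid receptor gene ninaD, at 31.6 against 16.5 FPKM, was not called without centring, and the scaffold gene inaD had a change of 0.59. Among 9 neuronal genes Arc1 and Arc2 were the calls, while the synaptic genes brp (-0.39) and VGlut (0.32) were not.

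Clock genes were not called, and odorant-binding genes were called in both directions, more often higher. Of 7 clock genes 0 were called (median 0.39), with the largest changes in tim (32.8 against 19.4 FPKM, 0.85), vri (0.64), Pdp1 (0.48) and cry (0.39). Of 29 odorant-binding protein genes 7 were higher (24.1%) and 2 lower (6.90%), against 3.36% and 1.8% of all analysed genes. The list's median was 0.06. Obp83cd had 12.7 against 1.53 FPKM (2.56), Obp83ef 5.46 against 1.23 FPKM (1.65) and Obp57a 8.80 against 2.86 FPKM (1.46). Obp99d was lower at 7.64 against 33.6 FPKM (-1.88).

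Genes of large housekeeping complexes were mostly not called, as were 10388 of all 10953 analysed genes. None of 87 cytosolic ribosomal protein genes was called (median -0.17), and the lowest was RpL13A at 1896 against 3108 FPKM (-0.59), followed by RpS5b (-0.59), RpL22-like (-0.57) and RpL17 (-0.54). Of 68 mitochondrial ribosomal protein genes 57 had changes above 0, with a median of 0.30 between homozygotes and 0.01 between heterozygotes. Of these mRpL34 (23.0 against 9.47 FPKM) and mRpL54 (8.99 against 4.14 FPKM, not without centring) were called, and mRpL14 (0.95) and mRpS5 (0.93) were not. Respiratory chain and ATP synthase genes had a median of 0.36 and 0 calls among 15, with ATPsyn-Cf6 at 0.64, cype at 0.56 and ATPsyn-d at 0.47.

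Proteasome genes showed 0 calls among 41 and a median of 0.03. The lowest members included testis-specific subunits, Prosalpha6T (46.3 against 97.5 FPKM, -0.94, called only without centring), Pros28.1A (-0.84) and Prosbeta2R2 (-0.81), and Prosalpha1 had -0.70. Among 17 vacuolar ATPase genes there were 0 calls (median 0.07), from Vha100-3 (-0.47) and Vha16-2 (-0.38) to Vha26 (0.27) and VhaM9.7-1 (0.37). The 5 analysed histone genes, of 42 in the table, were not called (median -0.17), with His2Av at -0.54, His3.3B at -0.25, His3.3A at -0.17 and His4r at -0.11.

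No chromatin regulator in either of the 2 lists was called. With 5.16% of all analysed genes called, 0 calls in lists this short does not set them apart. The list of 8 insulator genes held 0 calls (median -0.03), with pita at -0.44, CTCF at -0.43, mod(mdg4) at -0.21 and BEAF-32 at -0.06. For 17 Polycomb and trithorax genes the count was also 0 (median 0.05), with Pcl at -0.38, Sce at -0.37, osa at -0.32 and kis at 0.25.

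**Figure D3:**
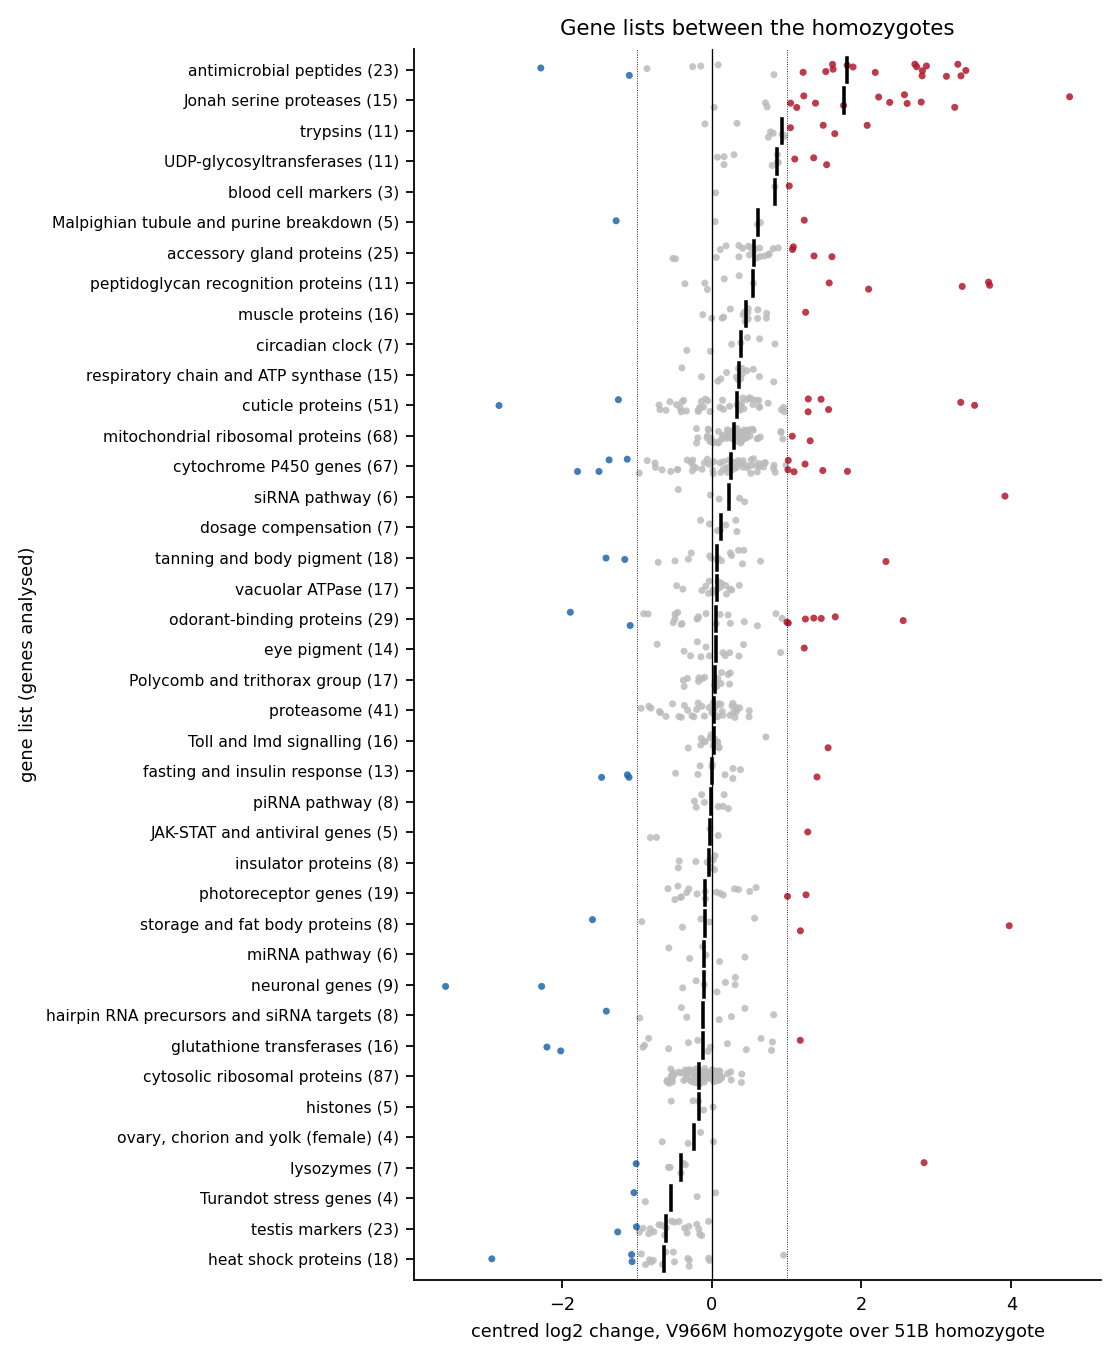
Centred log2 change between the homozygotes (horizontal axis, V966M over 51B) for the genes of 40 lists with at least 3 analysed members, where points are genes (red called higher, blue called lower, grey not called), black bars are list medians and dotted lines mark 2-fold. Medians run from -0.63 for heat shock genes to 1.81 for antimicrobial peptides, and most lists lie close to 0.

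The lists together held 740 analysed genes and 110 of the 565 calls, 81 higher and 29 lower, so 455 called genes belonged to none. Called genes shared a locus with another gene less often than analysed genes did, in 25.5% against 36.0%.

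Set beside the heterozygotes, most genes called between the homozygotes had a change of the same sign. The calls were chosen for a large change between homozygotes, so their smaller heterozygote medians are a description only: over all genes the median absolute change was 0.28 between homozygotes and 0.23 between heterozygotes. No sample is shared between these 2 comparisons, although the heterozygotes differ in their balancer markers as well as in the Ago2 allele. Between heterozygotes 127 of 10801 genes (1.18%) were higher and 87 (0.805%) lower. Of 366 genes higher in the V966M homozygote with a heterozygote value, 339 had a heterozygote change above 0, 94 were called higher and 0 lower. Their median was 1.37 between homozygotes and 0.63 between heterozygotes. Of 196 lower genes 161 had a heterozygote change below 0, 39 were called lower and 2 higher, with medians of -1.29 and -0.48. Across all 10801 genes, which do not count as replicates, both changes together had a Pearson r of 0.65 and a Spearman rho of 0.63.

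The 51B homozygote held the extreme value in most calls. It was the lowest of the 4 genotypes in 358 of 366 higher genes (97.8%) and the highest in 184 of 196 lower genes (93.9%). The other 3 genotypes lay within 2-fold of each other in 241 of the 366 higher genes and 149 of the 196 lower ones. Over all genes this was more frequent, in 10499 of 10801. The call rule needs the 51B homozygote to be far from the V966M homozygote, so these counts describe the profile and test nothing. The 3 genotypes other than the V966M homozygote lay within 2-fold in 41 higher and 25 lower genes, and in 9926 of all genes. The V966M heterozygote was the highest of the 4 in 205 of the higher genes, and the V966M homozygote in 146.

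The calls whose homozygote change exceeded the heterozygote change most included some with no difference, or the reverse, between heterozygotes. CG34196 had 2.58 against 0.412 FPKM in homozygotes and 1.89 against 3.75 FPKM in heterozygotes. Jon25Bi, described above, had a heterozygote change of -0.29, against 2.23 between homozygotes. Arc1 kept its direction with a smaller change, -0.65 against -3.55. Dro and LysD were called in opposite directions.

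**Figure D4:**
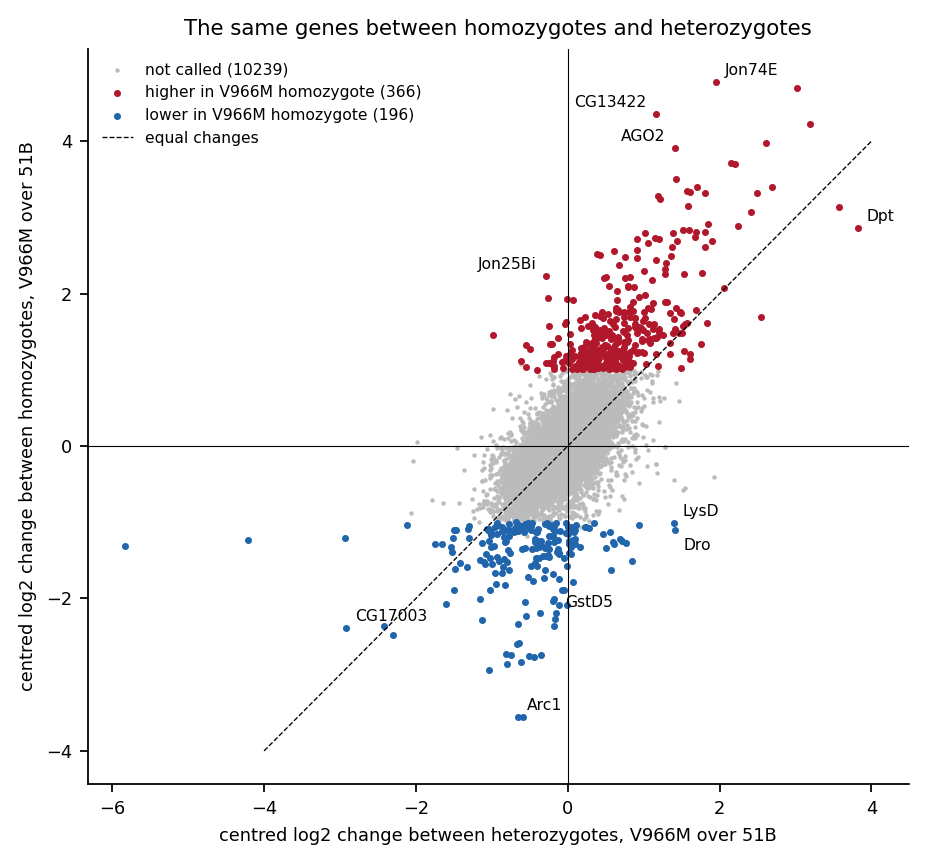
Centred log2 change (V966M over 51B) between heterozygotes (horizontal axis) and between homozygotes (vertical axis) for 10801 genes, with a dashed line at equal changes and colours for the call between homozygotes. Most of the 366 higher genes lie above the dashed line in the upper right, Arc1 lies near the vertical axis far below 0, and Dro and LysD lie in the lower right.

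By chromosome, the arms X, 2L, 2R, 3L and 3R had median changes between -0.05 and 0.01, and 3L, the arm of AGO2, held 66 higher and 44 lower of 2098 genes. Arm 2R had the most calls, 100 higher and 43 lower of 2207. Called genes made up 6.48% on 2R and 5.24% on 3L, against 5.16% of all analysed genes. The small chromosome 4, which is rich in heterochromatin and active genes side by side, differed from them in its median. Of its 76 analysed genes 75 had changes above 0, the median was 0.44, and 1 was called, Rfabg. The exception was JYalpha at 1.56 against 2.44 FPKM (-0.31). The median was 0.46 for the 53 genes with a mean of at least 5 FPKM.

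The pooled scaffolds of heterochromatin had 41 of 48 genes above 0, a median of 0.43 and 4 genes higher (8.33%, against 3.36% of all). By scaffold the medians ran from 0.17 on XHet (9 genes) to 0.70 on 3RHet (7 genes), except for YHet, where both of its 2 genes were below 0 (median -0.22). The genes called higher were CG40002 (115 against 58.1 FPKM), now named ND-AGGG, a subunit gene of respiratory complex I, CG40472 (165 against 83.0 FPKM), CG40198 (17.1 against 7.16 FPKM) and CG41128 (18.7 against 9.61 FPKM). Between heterozygotes the medians were 0.38 on chromosome 4 (66 of 74 genes above 0) and 0.25 on the scaffolds (37 of 47). Relative to each gene's own mean over the 4 genotypes, chromosome 4 genes had a median log2 level of 0.01 in V966M homozygotes and -0.41 in 51B homozygotes, and of 0.39 and 0.00 in the respective heterozygotes. The scaffold genes had 0.03 and -0.39 in the homozygotes and 0.31 and 0.04 in the heterozygotes, V966M first. The V966M heterozygote and the 51B homozygote, the outer values, were also the 2 libraries with the wider deposited intervals (24.9% and 29.2% half-width, against 15.7% and 16.5%), and the part of this in the shift was not tested.

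**Figure D5:**
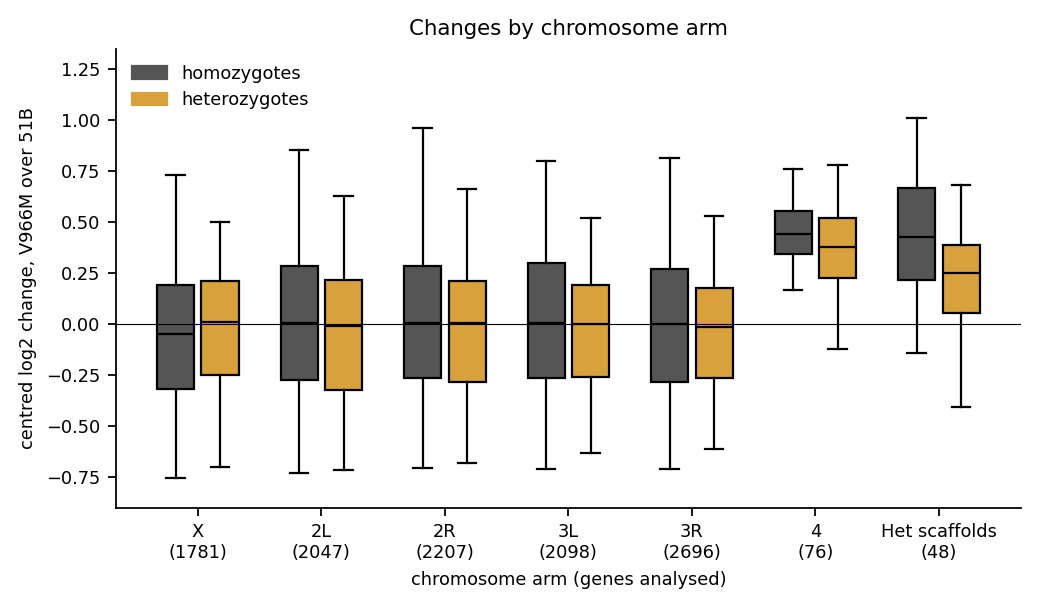
Centred log2 change (vertical axis, V966M over 51B) by chromosome arm between homozygotes (grey) and heterozygotes (gold), where boxes span the quartiles, black lines are medians and whiskers run from the 5th to the 95th percentile. Chromosome 4 and the pooled heterochromatic scaffolds have medians above 0 in both comparisons, with values of 0.44 and 0.43 between homozygotes, and the other arms are centred near 0.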

How the data were processed

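Whole-male mRNA of 4 Ago2 genotypes was sequenced from Trizol-extracted total RNA in standard Illumina libraries, per the labels' protocols. The authors deposited FPKM per gene and genotype, with interval bounds in FPKM and a quantification status, per the file headers. TopHat, Cufflinks and dm3 are named in the submitters' processing notes; versions, annotation, strand setting and the interval level were not given in sources used here. Per the design text genotypes were sequenced in duplicate, and the table holds 1 value for each. Overlapping genes share 1 locus in the table, and loci are in dm3 with the start counted from 1. Current symbols come from RefSeq synonyms.

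Changes and calls were computed with Python 3.11.15, pandas 2.3.3 and numpy 2.4.6 from a pseudocount of 1 FPKM, a minimum mean of 1 FPKM and a 2-fold threshold. Of the genes in the table, 616 were left out for status and 2421 for level. The call rule was tested on simulated data. No sequences were used here.

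The members and the 41 gene lists were chosen with earlier results of these data known. The rule for named genes took AGO2, the 12 largest calls in each direction, the 5 calls in each direction with the largest excess over the heterozygote change, all siRNA and hairpin list members, up to 4 members with the largest change in each other list with at least 3 analysed, and calls within 50 kb of AGO2. Genes named outside it were chosen after their values were seen: Mtk, IM1, IM4, dro4, Amy-d, Amy-p, roX2, Hen1, piwi, AGO3, JYalpha, CG7739, CG12279, CG40002, CG40198, CG40472, CG41128, CG32857, CG42529 and the genes at the level minimum. Alternatives were other pseudocounts (0.1 and 5 FPKM), no filter or a mean of at least 5 FPKM, no centring or ribosomal centring, fold alone, a 3-fold threshold, and leaving out shared loci or chromosome 3.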

Additional observations from a re-analysis of the deposited data

Results flagged for a closer look

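Dro and LysD passed the call rule in opposite directions in the 2 comparisons: lower in V966M between homozygotes and higher in V966M between heterozygotes. The drosocin gene Dro had a centred log2 change of -1.10 between homozygotes and 1.41 between heterozygotes. For the lysozyme gene LysD, which shares its locus with other lysozyme genes, the changes were -1.01 and 1.39. Neither gene was called between homozygotes when values were centred on ribosomal protein genes. With 1 value per genotype the difference between the 2 comparisons was not tested.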

How the results depend on the processing

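Higher and lower calls numbered 162 and 122 with a pseudocount of 5 FPKM, 122 and 50 at a 3-fold threshold, and 218 and 104 without chromosome 3 genes, where fewer genes were counted. Lower calls numbered 306 without centring and 131 with ribosomal centring. The other settings gave 274 to 514 higher and 147 to 242 lower calls. AGO2 was called wherever it was kept, with changes of 3.30 to 4.11, and 82.8% to 95.9% of called genes had the same sign between heterozygotes (89.0% in the report). No named gene with a call reversed. Named genes without a call were checked only for gaining one, and those near 0 could change sign, such as Trax (0.10, and -0.02 without centring). Over all settings, 84 values of named genes lost a call, 40 of them at the 3-fold threshold, 20 with a pseudocount of 5 FPKM (mus308, CG34196, CG7272, TotA, Vago, Pxn, Cyp4e1, GstE1, Ugt37b1, Hsp70Aa, Hsp70Ab, Lcp2, ry, Acp24A4, Rh5, ninaD, Obp83ef, Obp57a, daw and mRpL54), and 22 gained one. LysD, TotA and loopin-1 were not called with a mean of at least 5 FPKM, LysD and loopin-1 with a pseudocount of 0.1 FPKM, Pxn and ninaD without a filter, and loopin-1 without chromosome 3. No paired analysis was possible because the table holds 1 value per genotype. Depth is unknown, and each side rests on 1 value, with the wider intervals in the 51B homozygote.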

Other observations

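Called genes often had a gene called in the same direction within 10 kb. Among genes with a locus of their own, 92 of 270 higher genes (34.1%) had such a neighbour, against 630 of all 6964 genes (9.05%). For lower genes the counts were 25 of 147 (17.0%) and 374 of 6964 (5.37%). How many of these pairs are members of 1 gene family was not counted.

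Among genes lower in the V966M homozygote, a pair stood apart in the heterozygotes. CG42529 had 28.5 FPKM in the V966M homozygote and 78.7 FPKM in the 51B homozygote, and it was listed at 0 in the V966M heterozygote beside 46.4 FPKM in the 51B heterozygote. CG32857 had 13.7 and 36.5 FPKM in the homozygotes and 0.018 and 14.7 FPKM in the heterozygotes. Both share their loci with other genes.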
